A study of Mus musculus with 9 samples.

Results

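The genes described here encode the enzymes that build cholesterol and fatty acids, together with the proteins that set their level. There were 33, listed by name for this work, of 32451 genes and unnamed transcripts with a probe on the array. They comprised 17 sterol genes (6 that lead from acetoacetyl-CoA to farnesyl pyrophosphate and 11 from there to cholesterol), 5 genes of sterol control and transport, and 11 fatty acid genes (2 that supply acetyl-CoA, 3 of chain synthesis and 6 of elongation and desaturation). Expression was high enough to test in 31 of them. The probes of Scd1 and Fads2, a stearoyl-CoA and a delta-6 desaturase, were not well above background on any of the 9 arrays, and both genes were left out of the tests.

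CD4+ T cells were taken from BALB/c mice, from lymph nodes and spleen. Before sorting, all 3 populations were stimulated for 3 h with PMA at 10 ng/ml, which activates protein kinase C, and with ionomycin at 500 ng/ml, which raises calcium, so the naive cells were stimulated too. Naive cells were CD45RB high, where CD45RB is an isoform of the phosphatase CD45 that is abundant on cells yet to meet antigen. Th1 and Th17 cells were both CD45RB low. Th1 cells had captured secreted interferon gamma and no IL-17A, Th17 cells IL-17A and no interferon gamma. Total RNA of each population was hybridised to 3 Agilent arrays in a single colour. The labels name no genotype beyond the strain, no animal ages, and no animals or sorts behind the 3 arrays of a population. The spread behind each p-value is thus that among these samples alone and may be technical.

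Cholesterol is built from acetyl-CoA through mevalonate, farnesyl pyrophosphate and squalene, and fatty acids from acetyl-CoA through malonyl-CoA. Both routes are driven by the SREBP transcription factors. When sterols in the endoplasmic reticulum run low, the escort protein SCAP carries SREBP to the Golgi, where proteases release its active part, and INSIG proteins hold SCAP back when sterols are plentiful. Stimulated T cells are known to turn on both routes as they grow, and Th17 differentiation is known to depend on fatty acid synthesis and on sterol intermediates that bind the receptor RORgamma-t.

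A level is the log2 intensity of a probe minus that of the array's 75th percentile (0 means as bright as that percentile), given array by array in the order of the replicate numbers, with n = 3 per population. Changes are log2 differences ± SE from limma. A gene was called lower or higher, and is said to have fallen or risen, at an adjusted p (Benjamini-Hochberg over 19071 genes) under 0.05. The arrays were alike in quality, with 53.4% to 58.3% of probes well above background and a correlation of 0.9823 to 0.9919 between arrays of a population. The cytokine transcripts behind the sort followed the labels: Ifng stood at 9.02 to 9.35 on the Th1 arrays and at most 2.10 on the others, and Il17a at 9.10 to 9.59 on the Th17 arrays and at most 0.61 on the others. The 6 T cell markers, Cd3e and Cd4 among them, were above background throughout, with a summed level of 279 to 310 in naive, 401 to 482 in Th1 and 368 to 378 in Th17 cells. The B cell markers Cd79b, Ms4a1 and Pax5, Cd8a of CD8 T cells, and Ncr1 and Klrb1c of NK cells were above background on no array. Other markers of these lists were detected. Cd8b1 was above background on all arrays and fell in Th1 and Th17 cells (-3.31 and -3.43, adjusted p = 2.13e-06 and 1.91e-06). Eomes, of the NK list, was above background on all naive and Th1 arrays and 1 Th17 array, and fell in Th17 cells (-5.71, adjusted p = 0.000148). Cd79a was above background on 2 arrays of each population, without a call. The summed level of the 2 CD8 markers was 0.614 to 0.727 in naive, 0.0678 to 0.0799 in Th1 and 0.0577 to 0.0809 in Th17 cells, that of 5 B cell markers 0.0559 to 0.0939, 0.0585 to 0.144 and 0.0616 to 0.0823, and that of the 4 NK markers 0.684 to 1.06, 0.258 to 0.551 and 0.0209 to 0.0725. The 6 myeloid markers on the array summed to 18.1 to 18.5 in naive, 27.6 to 33.5 in Th1 and 21.3 to 32.9 in Th17 cells, with Csf1r, Itgam and Cd14 above background on all arrays. Of the 4 tested, Csf1r fell in Th1 and Th17 cells (-0.73 and -0.79, adjusted p = 0.00272 and 0.00183), Itgam rose in both (1.06 and 0.78, adjusted p = 0.0011 and 0.00504), and Cd14 rose in Th17 cells (3.04, adjusted p = 0.000177, and 2.47 against Th1, adjusted p = 0.00256). The part of these markers in the results was not tested. In sorted bulk RNA, fewer cells with a transcript and less of it per cell cannot be told apart.

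The promoters of 6 of the genes are shown, chosen by how the levels of their transcripts differed between the populations. Hmgcs1, Cyp51, Insig1 and Elovl5 were low in both effector populations, whereas Msmo1 and Acly separated Th1 from Th17 cells. Each sequence holds the 250 bases before the gene's start, 5′ to 3′ on the gene's strand (RefSeq, build GRCm38.p6). Capitals mark the motifs searched on both strands, which were the NF-Y box CCAAT, the Sp1 box GGGCGG, the E-box CACGTG and TCACNCCAC, the core of the sterol regulatory element that SREBP binds.
Hmgcs1, chr13:119690101-119690350, plus strand: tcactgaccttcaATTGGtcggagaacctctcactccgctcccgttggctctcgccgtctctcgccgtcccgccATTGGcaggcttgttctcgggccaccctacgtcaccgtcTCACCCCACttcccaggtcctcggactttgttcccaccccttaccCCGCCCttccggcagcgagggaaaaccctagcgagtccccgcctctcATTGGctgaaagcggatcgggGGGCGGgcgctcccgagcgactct
Cyp51, chr5:4104698-4104947, minus strand: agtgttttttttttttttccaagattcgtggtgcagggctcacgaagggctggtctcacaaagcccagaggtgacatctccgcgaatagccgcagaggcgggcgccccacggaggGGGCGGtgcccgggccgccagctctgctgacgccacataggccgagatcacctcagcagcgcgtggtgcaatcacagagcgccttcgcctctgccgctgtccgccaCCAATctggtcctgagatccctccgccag
Insig1, chr5:28071162-28071411, plus strand: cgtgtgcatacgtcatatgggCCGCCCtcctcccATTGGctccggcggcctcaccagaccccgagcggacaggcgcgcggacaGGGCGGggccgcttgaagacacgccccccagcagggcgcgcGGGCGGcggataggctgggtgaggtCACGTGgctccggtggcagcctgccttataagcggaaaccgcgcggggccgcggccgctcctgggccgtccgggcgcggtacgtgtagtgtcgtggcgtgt
Elovl5, chr9:77917115-77917364, plus strand: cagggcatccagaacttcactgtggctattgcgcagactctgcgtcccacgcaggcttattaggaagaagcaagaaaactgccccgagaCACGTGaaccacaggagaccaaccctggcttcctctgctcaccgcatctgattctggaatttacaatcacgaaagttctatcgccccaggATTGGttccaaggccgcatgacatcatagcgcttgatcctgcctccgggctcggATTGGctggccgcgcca
Msmo1, chr8:64733579-64733828, minus strand: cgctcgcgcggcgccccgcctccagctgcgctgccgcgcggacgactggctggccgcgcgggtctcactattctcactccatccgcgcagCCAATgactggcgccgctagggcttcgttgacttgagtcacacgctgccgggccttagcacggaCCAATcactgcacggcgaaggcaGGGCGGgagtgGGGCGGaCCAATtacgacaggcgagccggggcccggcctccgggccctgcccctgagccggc
Acly, chr11:100528001-100528250, minus strand: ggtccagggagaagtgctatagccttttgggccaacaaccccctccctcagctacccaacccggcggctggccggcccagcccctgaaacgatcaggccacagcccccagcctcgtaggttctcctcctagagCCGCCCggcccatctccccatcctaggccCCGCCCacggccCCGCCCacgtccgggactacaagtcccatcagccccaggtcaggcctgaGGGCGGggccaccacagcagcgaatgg

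A promoter window, from 250 bases before to 50 after the start, was found for 26 of the 33 genes. CCAAT lay in a window of 22 of the 26 genes (84.6%), compared with 41.1% of all 27025 genes with a window, whether tested here or not. GGGCGG lay in 20 of them (76.9%, against 38.2%) and CACGTG in 6 (23.1%, against 8.09%). Among the 12 genes with a window that fell in both Th1 and Th17 cells, CCAAT was present in 10, GGGCGG in 9 and CACGTG in 4. For CCAAT and GGGCGG this is near their share over all 26 genes, so these motifs did not set the 12 apart. TCACNCCAC, present in 1.44% of genes, was found in Hmgcs1 alone, with its first base at position -137 from the start. The full sterol regulatory element, which contains that core, was found in 0 of the 26, both in its exact form (0.0999% of all genes) and with 1 free base (0.27%). These matches describe the letters in the windows and are no sites of binding.

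More of the tested genes fell than rose in both effector populations. In Th1 cells 11 of 17 sterol and 6 of 9 fatty acid genes fell, and in Th17 cells 8 of 17 and 7 of 9. In all, 19 of the 31 fell in Th1 cells and 0 rose by limma (19 lower and 1 higher at an unadjusted p under 0.05), when 30.8% of all genes tested fell and 23.2% rose, 54.1% in all. In Th17 cells 17 fell and 4 rose, against 30.5% and 23.9% of all genes, 54.4% in all. The median change of the 31 genes was -0.64 in Th1 and -0.71 in Th17 cells, and that of all genes was -0.10 and -0.101. The routes differed, with medians of -1.08 in Th1 and -0.29 in Th17 cells for the sterol genes. For the fatty acid genes the medians were -0.53 and -0.74, and for the control genes -0.33 and -0.45. Both comparisons used the same 3 naive arrays and so are not independent. In both, 15 of the 31 fell (24.3% of all genes did so), 0 rose, and Acly alone moved in opposite directions, as did 0.671% of all genes.

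**Figure D1:**
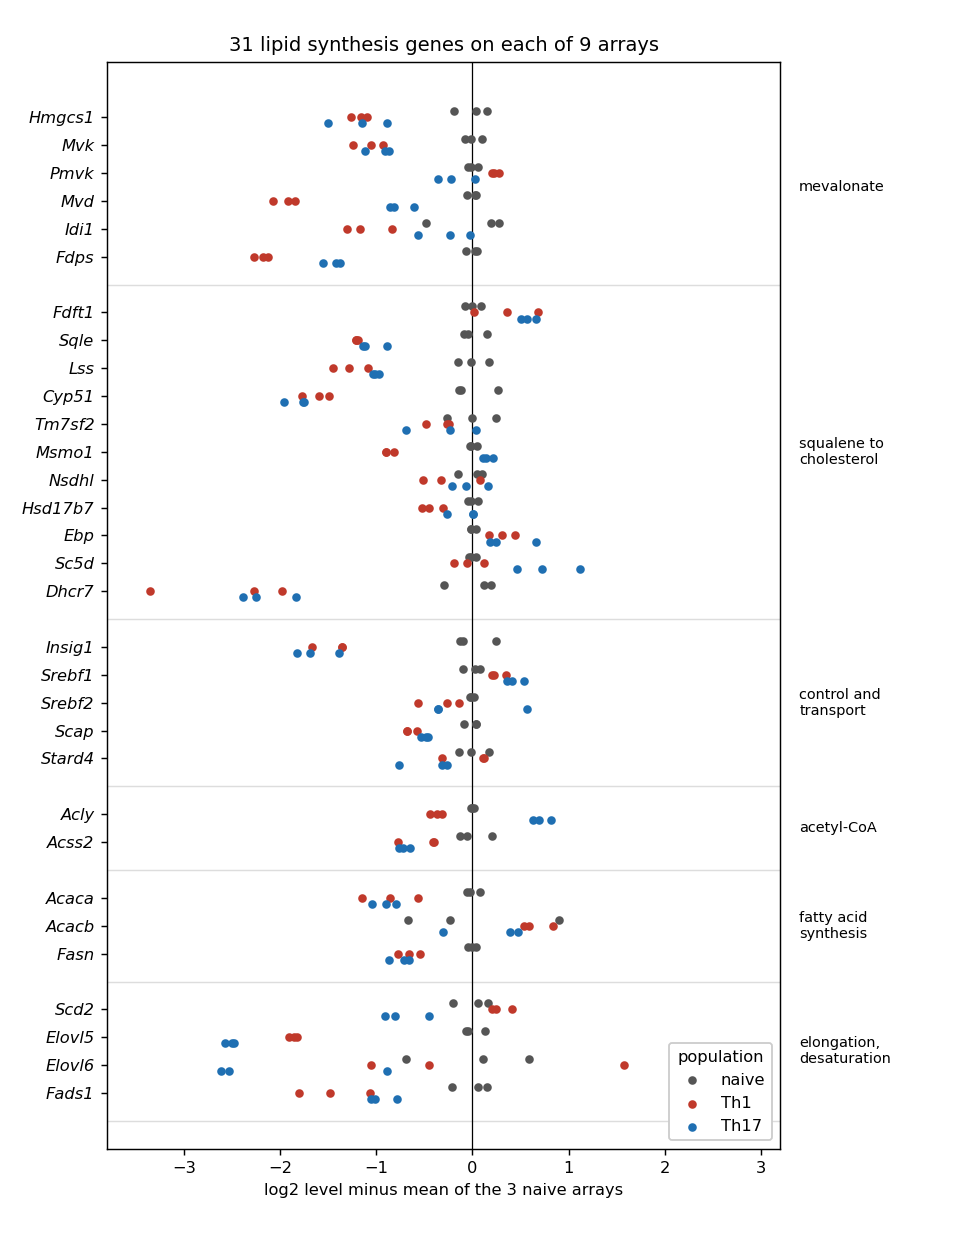
Log2 level of the 31 tested genes on each of the 9 arrays, minus the mean of the 3 naive arrays (x axis), ordered by role (y axis); each point is an array of naive (grey), Th1 (red) or Th17 (blue) cells. Most red and blue points lie left of 0, with means of -2.20 for Fdps in Th1 cells and -2.51 for Elovl5 in Th17 cells, whereas the Acly points of Th17 cells lie at the right.

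The array slides were not balanced over the populations. Slide 1 held the 3 naive arrays and Th1 replicate 1, slide 2 held Th1 replicates 2 and 3 with Th17 replicates 1 and 2, and slide 3 held Th17 replicate 3. Capped normexp below is a background correction in which very bright local background was limited. With slide as a block, 16 genes were lower and 2 higher in Th1 cells, and 13 lower and 2 higher in Th17 cells. Within slide 1 alone, 15 were lower and 1 higher in the single Th1 array than in the naive arrays, where the spread could come from naive arrays alone. Naive and Th17 arrays shared no slide. With slide as a block, their comparison was therefore linked only through the Th1 arrays, with replicate 1 the sole link to slide 1. Th17 replicate 3, alone on its slide, carried no weight in the blocked values. For Th1 against naive cells the blocked values equalled those within slide 1, and for Th17 against Th1 cells those within slide 2. They are thus not separate checks. When the 75th percentile was taken over only those probes above background throughout, the median change of all genes in Th1 cells went from -0.10 to 0.055 and the share of calls that were higher from 43% to 55.2% (from 44% to 51.5% in Th17 cells, and from 51.2% to 41.6% in Th17 against Th1 cells). Under it Pmvk, Fdft1, Ebp, Srebf1 and Scd2 were called higher in Th1 cells, 5 in place of 0.

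**Figure D2:**
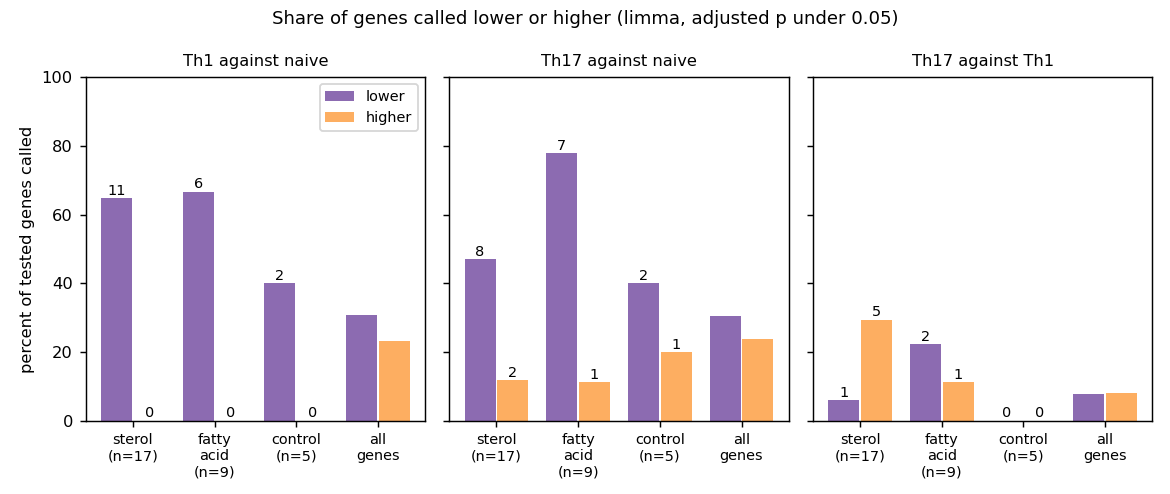
Percent of tested genes called lower (purple) or higher (orange) at an adjusted p under 0.05 in each of the 3 comparisons, for 17 sterol genes, 9 fatty acid genes, 5 control and transport genes and all 19071 genes; numbers above the bars of the 3 gene groups are counts of genes. In Th1 cells 11 sterol and 6 fatty acid genes were lower and 0 higher, and in Th17 against Th1 cells 5 sterol genes were higher and 1 lower.

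The first enzymes of the sterol route fell together. Of the 6 genes of the mevalonate segment, 5 fell in Th1 and 4 in Th17 cells, with median changes of -1.14 and -0.87. Of all genes, 30.8% and 30.5% fell, with median changes of -0.10 and -0.101. Hmgcs1, the synthase that makes HMG-CoA, stood at 3.02, 3.36 and 3.25 on the naive arrays, 2.05, 2.11 and 1.95 on the Th1 arrays and 1.71, 2.06 and 2.32 on the Th17 arrays. All effector arrays lay below all naive arrays, and the fall was 2.26-fold in Th1 cells (-1.18 ± 0.16, adjusted p = 0.000487) and 2.27-fold in Th17 cells (-1.18 ± 0.16, adjusted p = 0.000444). Mvk, mevalonate kinase, fell 2.11-fold in Th1 and 1.95-fold in Th17 cells. Pmvk, the kinase of the next step, did not follow: its change was 0.24 ± 0.11 (adjusted p = 0.114) in Th1 and -0.18 ± 0.11 (adjusted p = 0.214) in Th17 cells.

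Mvd and Fdps separated the effector populations within this segment. Mvd, the decarboxylase that yields isopentenyl pyrophosphate, was measured at -1.89, -1.80 and -1.79 in naive, -3.68, -3.91 and -3.75 in Th1 and -2.69, -2.44 and -2.65 in Th17 cells. The 3 populations did not overlap, with Th1 cells lowest, a fall of 3.87-fold (-1.95 ± 0.11, adjusted p = 3.66e-06), and Th17 cells between, 1.70-fold below naive (-0.77 ± 0.11, adjusted p = 0.000476). With slide as a block the latter fall was no longer called (-0.59, adjusted p = 0.071). Fdps, farnesyl pyrophosphate synthase, stood at 2.98, 3.08 and 3.1 in naive, 0.78, 0.92 and 0.87 in Th1 and 1.50, 1.67 and 1.63 in Th17 cells. The order was the same, 4.58-fold lower in Th1 (-2.20 ± 0.09, adjusted p = 9.51e-07) and 2.74-fold lower in Th17 cells (-1.45 ± 0.09, adjusted p = 7.53e-06). Idi1, the isomerase of isopentenyl pyrophosphate, read 2.85, 2.94 and 2.18 in naive, 1.35, 1.82 and 1.49 in Th1 and 2.09, 2.63 and 2.43 in Th17 cells. It fell in Th1 cells (-1.11 ± 0.23, adjusted p = 0.00421, but 0.0526 within slide 1), and the Th17 arrays overlapped the naive ones (-0.28 ± 0.23, adjusted p = 0.344).

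From squalene onward, 6 of 11 genes fell in Th1 cells and 0 rose (30.8% and 23.2% of all genes). In Th17 cells 4 fell and 2 rose, near the shares of all genes (30.5% and 23.9%). The median changes were -0.43 and -0.08. Sqle, Lss, Cyp51 and Dhcr7 fell at least 2-fold in both populations. Sqle, squalene epoxidase, was 3.93, 4.17 and 3.97 in naive cells, 2.81, 2.81 and 2.83 in Th1 and 2.88, 2.90 and 3.13 in Th17 cells. The effector arrays of both kinds did not overlap the naive ones, a fall of 2.31-fold in Th1 (adjusted p = 4.88e-05) and 2.08-fold in Th17 cells (adjusted p = 9.03e-05). Lss, lanosterol synthase, which closes the sterol rings, fell 2.42-fold and 2.01-fold (adjusted p = 7.34e-05 and 0.00024).

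Cyp51, lanosterol 14-alpha-demethylase, showed values of 0.65, 1.06 and 0.67 in naive, -0.98, -0.81 and -0.70 in Th1 and -1.17, -0.96 and -0.97 in Th17 cells. Its fall, 3.08-fold in Th1 (-1.62 ± 0.14, adjusted p = 4.13e-05) and 3.55-fold in Th17 cells (-1.83 ± 0.14, adjusted p = 2.02e-05), left the effector arrays overlapping each other and none of the naive ones. Dhcr7, the reductase of the last step to cholesterol, went from -2.81, -2.32 and -2.39 in naive cells to -5.86, -4.78 and -4.49 in Th1 and -4.90, -4.76 and -4.35 in Th17 cells. Its falls of 5.79-fold (-2.53 ± 0.34, adjusted p = 0.000401) and 4.48-fold (-2.16 ± 0.34, adjusted p = 0.000867) left no overlap with the naive arrays. Only 1 of the 3 Th1 arrays was well above background for it, so the size of the fall there is uncertain. It also depended on the processing. Its value ran from -3.35 (slide as a block) to -1.05 (capped normexp) in Th1 and from -3.55 to -0.82 in Th17 cells, with the call kept under each alternative but the uncapped normexp correction described with the limits.

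Other genes of this segment changed in 1 effector population or in neither. Msmo1, the C-4 methyl oxidase, was 3.13, 3.19 and 3.11 in naive, 2.24, 2.32 and 2.24 in Th1 and 3.35, 3.25 and 3.28 in Th17 cells. Th1 cells were 1.84-fold below naive cells (-0.88 ± 0.08, adjusted p = 6.13e-05), whereas the Th17 arrays lay just above them (0.15 ± 0.08, adjusted p = 0.156). Hsd17b7, the sterol 3-keto reductase of the same demethylation, fell 1.34-fold in Th1 cells (adjusted p = 0.0116, but 0.137 with slide as a block), with -0.08 ± 0.11 in Th17 cells (adjusted p = 0.557).

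Sc5d, which introduces the C-5 double bond, was 1.42, 1.37 and 1.34 in naive, 1.32, 1.50 and 1.19 in Th1 and 1.84, 2.50 and 2.10 in Th17 cells. It was higher in Th17 cells by 1.70-fold (0.77 ± 0.17, adjusted p = 0.00467, but 0.149 with slide as a block), and its Th1 arrays overlapped the naive ones (-0.04 ± 0.17, adjusted p = 0.855). Fdft1, squalene synthase, rose 1.49-fold in Th17 cells (0.58 ± 0.16, adjusted p = 0.0149), with 0.28, 0.45 and 0.36 on the naive and 0.93, 0.87 and 1.02 on the Th17 arrays. Its Th1 arrays, at 1.04, 0.38 and 0.72, held 1 within the naive range and 2 above it (0.35 ± 0.16, adjusted p = 0.0964, and 0.0165 without Th1 replicate 2). Tm7sf2 and Nsdhl, a reductase and a decarboxylating dehydrogenase, and Ebp, the sterol isomerase, passed the test in neither comparison. Their changes ran from -0.33 to 0.36, that of Ebp upward in both populations (0.31 with adjusted p = 0.102 and 0.36 with adjusted p = 0.0628).

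The 5 genes of control and transport held 2 that fell in both populations, Insig1 and Scap, when 24.3% of all genes did so. They also held the SREBP genes, of which neither was called lower. Insig1, which retains SCAP and is itself a target of SREBP, read 1.16, 1.50 and 1.13 in naive, -0.41, -0.10 and -0.10 in Th1 and -0.57, -0.13 and -0.43 in Th17 cells. The naive arrays stood alone, 2.77-fold above Th1 (-1.47 ± 0.16, adjusted p = 0.00014) and 3.12-fold above Th17 cells (-1.64 ± 0.16, adjusted p = 7.08e-05). Scap, the escort of SREBP, was 3.99, 3.86 and 3.99 in naive, 3.37, 3.27 and 3.27 in Th1 and 3.49, 3.47 and 3.41 in Th17 cells, 1.56-fold and 1.40-fold lower (adjusted p = 0.000421 and 0.00167, the latter 0.131 with slide as a block).

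Srebf2, which encodes the SREBP that mainly drives sterol genes, changed by -0.33 ± 0.24 in Th1 (adjusted p = 0.295) and -0.05 ± 0.24 in Th17 cells (adjusted p = 0.878). Th17 replicate 1, at 0.72, stood above the other two, both at -0.21, and above the naive arrays at 0.12 to 0.17. Srebf1, whose product mainly drives fatty acid genes, was dim, at -3.55, -3.68 and -3.50 in naive, -3.23, -3.38 and -3.36 in Th1 and -3.17, -3.22 and -3.04 in Th17 cells. It rose 1.35-fold in Th17 cells (0.43 ± 0.10, adjusted p = 0.00608, but 0.0609 with slide as a block and 0.197 with capped normexp), and its change in Th1 cells was 0.25 ± 0.10 (adjusted p = 0.0572). Stard4, a sterol carrier protein, had no call by its brightest probe (-0.03 in Th1, adjusted p = 0.892, and -0.45 in Th17, adjusted p = 0.0592), but its 2 probes disagreed, as described further on.

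**Figure D3:**
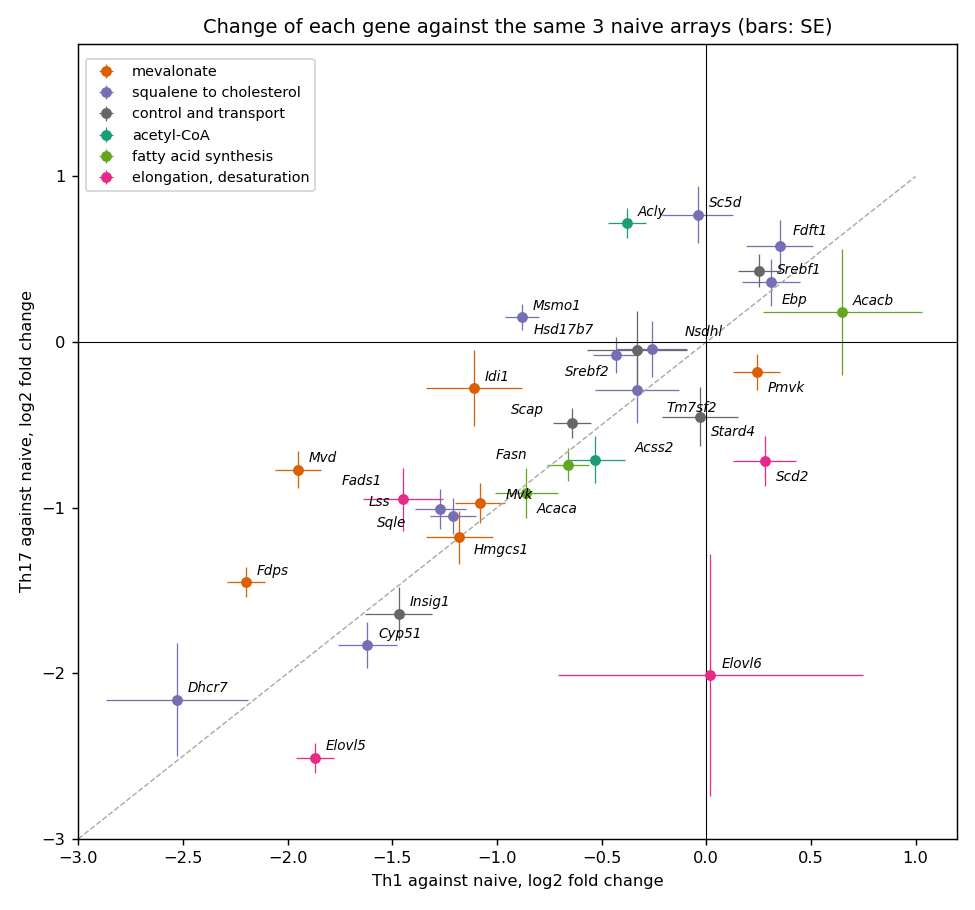
Log2 change of each of the 31 genes in Th1 (x axis) and Th17 cells (y axis) against the same 3 naive arrays, coloured by role, with bars for the SE; the dashed line marks equal change. Most genes lie in the lower left, Fdps and Mvd above the line (-2.20 and -1.45, -1.95 and -0.77), and Acly alone of the genes called in both lies in the upper left (-0.38 and 0.72).

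Acly, which cleaves citrate to give cytosolic acetyl-CoA, was the only gene of the 31 called in opposite directions. Its levels were 5.03, 4.99 and 5.01 in naive, 4.69, 4.57 and 4.64 in Th1 and 5.70, 5.64 and 5.83 in Th17 cells. The 3 populations did not overlap, with Th17 cells highest and Th1 cells lowest. The rise in Th17 cells was 1.64-fold (0.72 ± 0.09, adjusted p = 0.00026). With slide as a block it was 0.76 (adjusted p = 0.0137), a value that reaches the naive arrays only through Th1 replicate 1. The fall in Th1 cells was 1.30-fold (-0.38 ± 0.09, adjusted p = 0.00741). It was not called with slide as a block (-0.32, adjusted p = 0.063), within slide 1 (adjusted p = 0.124), or when scaled to the probes above background on all arrays (-0.22). Acss2, which makes acetyl-CoA from acetate, was near the lower end of detection and fell in both populations, by 1.44-fold in Th1 (-0.53 ± 0.14, adjusted p = 0.0114) and 1.64-fold in Th17 cells (-0.71 ± 0.14, adjusted p = 0.00251). Neither fall was called with slide as a block (adjusted p = 0.153 and 0.165) or with capped normexp (-0.24 and -0.09).

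Of the 3 enzymes of chain synthesis, Acaca and Fasn fell in both effector populations, when 24.3% of all genes did so. Acaca, the cytosolic acetyl-CoA carboxylase that makes malonyl-CoA, read 2.57, 2.43 and 2.46 in naive, 1.34, 1.63 and 1.92 in Th1 and 1.44, 1.59 and 1.69 in Th17 cells. That was a fall of 1.81-fold (-0.86 ± 0.15, adjusted p = 0.00166) and 1.88-fold (-0.91 ± 0.15, adjusted p = 0.00118). Fasn, fatty acid synthase, stood at -0.02, 0.02 and -0.07 in naive, -0.68, -0.79 and -0.57 in Th1 and -0.68, -0.89 and -0.73 in Th17 cells. Its falls of 1.57-fold (-0.66 ± 0.10, adjusted p = 0.000782) and 1.67-fold (-0.74 ± 0.10, adjusted p = 0.000383) left no overlap with the naive arrays. Acacb, the mitochondrial carboxylase whose product restrains fatty acid oxidation, was dim and uneven in naive cells (-3.75, -5.32 and -4.88, with 2 of 3 arrays above background). It had no call in Th1 (0.65 ± 0.38, adjusted p = 0.182) or Th17 cells (0.18 ± 0.38, adjusted p = 0.713), and without naive replicate 1 it was called higher in Th1 cells (adjusted p = 0.0105).

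Of the 6 listed genes of elongation and desaturation, 4 were tested. All 4 were called lower in Th17 cells (30.5% of all genes were). The calls of Scd2 and Elovl6 depended on the processing, as given below. Elovl5 and Fads1 were lower in both populations (24.3% of all genes were). Relatives outside this list are described further on, among them Elovl7, which fell, and Scd3, which rose. Elovl5, which lengthens polyunsaturated fatty acids, was 3.37, 3.57 and 3.39 in naive, 1.58, 1.61 and 1.53 in Th1 and 0.87, 0.94 and 0.96 in Th17 cells. The arrays of each population lay close together and the populations apart, 3.64-fold lower in Th1 (-1.87 ± 0.09, adjusted p = 2.13e-06) and 5.71-fold lower in Th17 cells (-2.51 ± 0.09, adjusted p = 7.14e-07). Of all genes tested, 1.71% had a lower change in Th17 cells. Fads1, the delta-5 desaturase, fell 2.73-fold in Th1 (-1.45 ± 0.19, adjusted p = 0.00038) and 1.93-fold in Th17 cells (-0.95 ± 0.19, adjusted p = 0.00324).

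Scd2 and Elovl6 were called lower in Th17 cells and had no call in Th1 cells. Scd2, a stearoyl-CoA desaturase, was dim at -3.42, -3.06 and -3.16 in naive, -2.98, -3.02 and -2.81 in Th1 and -4.03, -4.13 and -3.67 in Th17 cells. Th17 arrays were below all others (-0.72 ± 0.15 against naive, adjusted p = 0.00387, but -0.29 and 0.0625 with capped normexp), and Th1 arrays just above the naive ones (0.28 ± 0.15, adjusted p = 0.153). Elovl6, which lengthens saturated chains, scattered widely, at -0.55, -1.03 and -1.83 in naive, 0.44, -2.20 and -1.59 in Th1 and -2.03, -3.67 and -3.76 in Th17 cells. Its fall in Th17 cells (-2.01 ± 0.73, adjusted p = 0.0452) was lost when naive replicate 1, naive replicate 2, Th17 replicate 2 or Th17 replicate 3 was left out (-1.96 to -1.71, adjusted p = 0.104 to 0.127), and with slide as a block its value was 0.63 (adjusted p = 0.653). It was also lost with capped normexp (-1.04, adjusted p = 0.0717), without the filter on dim probes (adjusted p = 0.0818) and with the percentile over probes above background throughout (adjusted p = 0.054). The slide 1 arrays were the naive ones and Th1 replicate 1, and that Th1 array was the highest of the 9.

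Set directly against each other, Th17 and Th1 cells differed in 9 of the 31 genes, 6 higher and 3 lower in Th17 cells (8 and 5 at an unadjusted p under 0.05), when 8.12% of all genes tested were higher and 7.73% lower, 15.8% in all. The higher genes were 5 sterol genes and Acly. Mvd was 2.28-fold higher (1.19 ± 0.11, adjusted p = 0.000224), Acly 2.13-fold (1.09 ± 0.09, adjusted p = 0.000134) and Msmo1 2.04-fold (1.03 ± 0.08, adjusted p = 0.000125). For each of these all 3 Th17 arrays lay above all 3 Th1 arrays, and the difference was called within slide 2 as well (1.26, 1.07 and 1.02, adjusted p = 0.0207, 0.0168 and 0.0197). Fdps (0.74 ± 0.09, adjusted p = 0.00123), Sc5d (0.81 ± 0.17, adjusted p = 0.0133) and Idi1 (0.83 ± 0.23, adjusted p = 0.0464) were also higher.

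The 3 genes lower in Th17 than in Th1 cells were Scd2 (-1.0 ± 0.15, adjusted p = 0.00328, but -0.37 and 0.0593 with capped normexp), Elovl5 (-0.65 ± 0.09, adjusted p = 0.00238) and Pmvk (-0.42 ± 0.11, adjusted p = 0.0427). A further 22 genes had no call, Hmgcs1 (-0.01 ± 0.16, adjusted p = 0.985) and Acaca (-0.05 ± 0.15, adjusted p = 0.845) with the smallest differences among those that fell in both populations against naive cells. By role the medians were 0.23 for the sterol, -0.19 for the fatty acid and 0.15 for the control genes, and 0.005 for all genes. Within slide 2, which held 2 arrays of each population, 3 genes were higher and 1, Scd2, was lower; the differences of Fdps (0.69, adjusted p = 0.0531), Elovl5 (-0.66, adjusted p = 0.0502) and Sc5d (0.83, adjusted p = 0.165) kept their size and missed the threshold. The call of Sc5d was also lost with slide as a block (adjusted p = 0.072). The call of Idi1 was lost without any 1 of the Th1 arrays or without Th17 replicate 2 or 3 (adjusted p = 0.0596 to 0.127). That of Pmvk was lost without any 1 of the Th1 arrays or without Th17 replicate 1 or 2 (adjusted p = 0.0847 to 0.112).

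**Figure D4:**
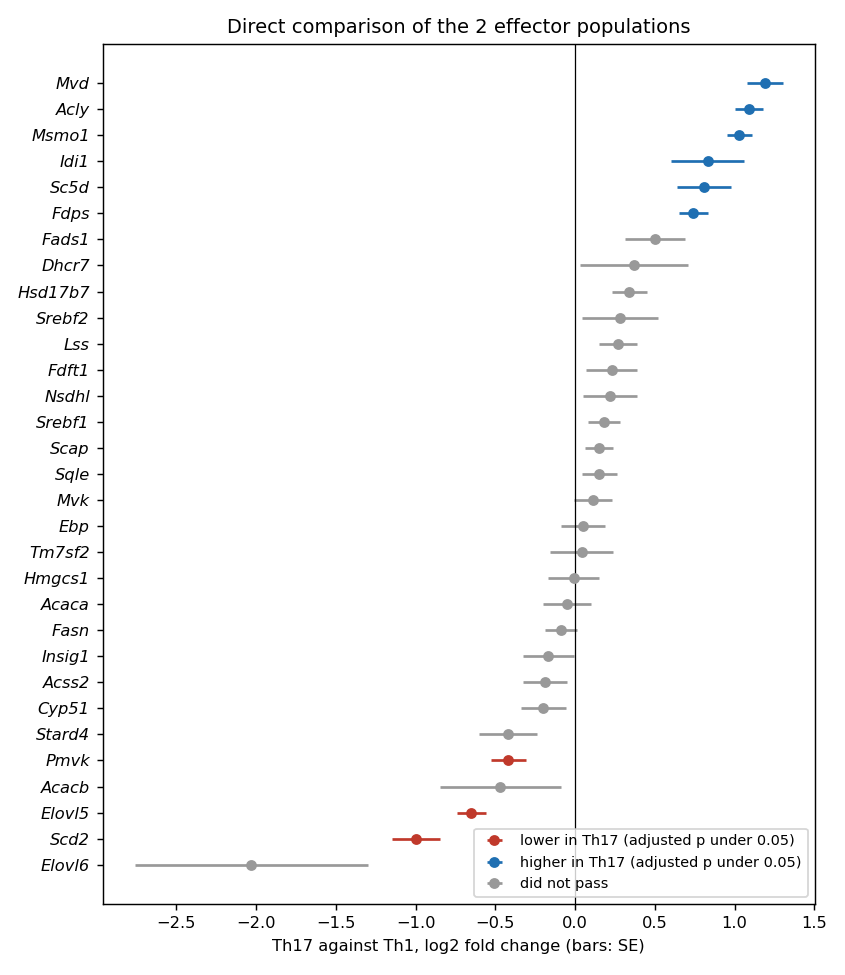
Log2 difference between Th17 and Th1 cells for each of the 31 genes (x axis), sorted by size, with bars for the SE and colours for the call at an adjusted p under 0.05. The 6 genes from Fdps at 0.74 to Mvd at 1.19 were higher in Th17 cells and 3 genes, Pmvk, Elovl5 and Scd2, were lower, while Elovl6 at -2.03 has a wide bar and no call (adjusted p = 0.10, but 0.0156 with the replicate number as a block).

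The 33 genes were covered by 46 probes, of which 42 were bright enough to keep, and 10 genes had several kept probes. The brightest probe stood for the gene. For Acly both probes gave the same picture: the dimmer one fell by 0.43 in Th1 cells (adjusted p = 0.0248) and rose by 0.91 in Th17 cells (adjusted p = 0.00066). For Stard4 they did not. Its second probe, at -0.41, -0.29 and -0.42 in naive, -1.67, -1.93 and -2.06 in Th1 and -2.19, -2.29 and -2.12 in Th17 cells, changed by -1.51 ± 0.12 (adjusted p = 2.34e-05) and -1.83 ± 0.12 (adjusted p = 8.14e-06), and with both probes averaged Stard4 was called lower in both populations (-0.77 and -1.14, adjusted p = 0.00151 and 0.000182). The second probe of Acss2 was above background on all naive arrays and on no Th1 or Th17 array. It thus passed the filter on dim probes only through the naive arrays. The fall was at least 2.16-fold in Th1 cells and at least 2.70-fold in Th17 cells, bounds without a test of their own. Such a bound sets the naive mean over all its arrays against the lowest signal well above background on each effector array, or the probe's own signal where that was higher. Of the other probes of Acaca, 1 fell further (-1.85 and -1.48, adjusted p = 0.00136 and 0.00418) and 1 showed no call (-0.14 and -0.22, adjusted p = 0.612 and 0.396). Second probes also differed in call from the first for Tm7sf2 in Th1 cells (-0.54, adjusted p = 0.0469), Mvk in Th17 cells (-0.83, adjusted p = 0.12) and Hsd17b7 between Th17 and Th1 cells (0.38, adjusted p = 0.0246).

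**Figure D5:**
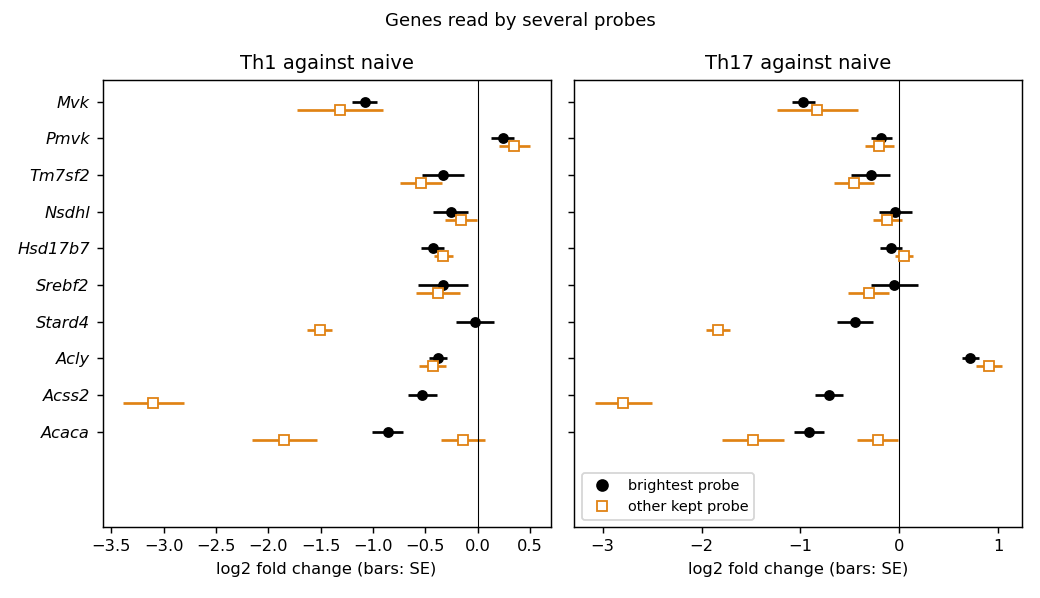
Log2 change against naive cells in Th1 (left) and Th17 cells (right) for each kept probe of the 10 genes with several, as the brightest probe (filled circle) and the others (open squares), with bars for the SE. The probes of Acly agree in sign in each panel, whereas those of Stard4 lie at -0.03 and -1.51 in Th1 cells; the open square of Acss2 is a fitted value of a probe below background in both effector populations.

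Other genes of lipid handling were read from a list of 50, of which 43 were tested. In Th1 cells 20 fell and 8 rose, in Th17 cells 19 fell and 12 rose, when 30.8% and 23.2%, and 30.5% and 23.9%, of all genes did so. These counts include Scd4 among the rises and Abca1 among the falls, which passed the filter on dim probes only through the arrays where they were high. Abca1 was above background on no Th1 or Th17 array. It was at least 1.45-fold lower in Th1 and 1.81-fold lower in Th17 cells, bounds without a test of their own. Between Th17 and Th1 cells 4 were higher and 4 lower, near the 8.12% and 7.73% of all genes. The falls with the smallest p included further sterol genes. Lbr, which holds a sterol C-14 reductase, fell by 1.54 in Th1 cells (adjusted p = 3.3e-06) and by 1.92 in Th17 cells (adjusted p = 1.33e-06). Tmem97, a SREBP target of cholesterol transport, fell by 1.18 in Th1 cells (adjusted p = 2.75e-05) and by 0.91 in Th17 cells (adjusted p = 1e-04). Acsl3, which activates fatty acids for lipid droplets, fell by 2.68 and 2.83 (adjusted p = 6.85e-06 and 5.24e-06), and Elovl7, another elongase, by 3.1 and 3.31 (adjusted p = 2.62e-05 and 1.68e-05). Acadm, of fatty acid oxidation, fell by 1.31 in Th1 cells (adjusted p = 3.7e-05) and by 1.54 in Th17 cells (adjusted p = 1.48e-05).

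Among the rises with the smallest p, Soat2, which esterifies cholesterol, rose by 3.31 in Th1 (adjusted p = 8.49e-05) and 2.63 in Th17 cells (adjusted p = 0.000275), with only 1 of 3 naive arrays above background, so that the size of the rise is uncertain. Its relative Soat1 rose by 0.54 in Th1 (adjusted p = 0.00574) and 0.92 in Th17 cells (adjusted p = 0.000369). Mbtps2, the site-2 protease that releases SREBP, rose by 1.15 and 1.43 (adjusted p = 0.000156 and 4.36e-05). Of the desaturases, Scd3 rose by 1.37 in Th1 (adjusted p = 0.000112) and 0.68 in Th17 cells (adjusted p = 0.00419). Scd4 was above background on no naive array, on all Th17 arrays and on 1 of 3 Th1 arrays. It passed the filter on dim probes through these effector arrays alone. In Th17 cells it was at least 1.18-fold higher than in naive cells, a bound without a test of its own. Stearoyl-CoA desaturase genes are close relatives, so probes may share signal. Between the effector populations, Hacd3, Scd3, Lbr and Cpt1a were lower in Th17 cells (-0.86, -0.69, -0.38 and -0.47, adjusted p = 0.000705, 0.0143, 0.0164 and 0.0378). Acsl4, Fabp5, Nfyc and Acat1 were higher (0.62, 0.46, 0.60 and 0.55, adjusted p = 0.0146, 0.0215, 0.0265 and 0.0466).

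Lipid synthesis is known to rise in dividing cells, so 15 genes of proliferation were read beside it, 13 of them tested. In Th1 cells 5 rose and 2 fell, when 23.2% and 30.8% of all genes did so. In Th17 cells 6 rose and 2 fell, against 23.9% and 30.5% of all genes. Between Th17 and Th1 cells 2 were higher and 0 lower, against 8.12% and 7.73% of all genes. Mki67, a marker of cycling cells, rose by 2.49 in Th1 (adjusted p = 0.0013) and 3.49 in Th17 cells (adjusted p = 0.000208). Ccna2, a cyclin of DNA replication, was above background on no naive or Th1 array. It passed the filter on dim probes only through its Th17 arrays. It is counted above as a rise in Th1 and Th17 cells and as higher in Th17 than in Th1 cells. Its counted rise in Th1 cells sets populations that were both below background against each other, so no rise can be read from it. The level of Ccna2 was at least 3.14-fold higher in Th17 than in naive cells, a bound without a test of its own. Pcna, the clamp of DNA replication, fell by 0.46 in Th1 cells (adjusted p = 0.00777) and by 0.66 in Th17 cells (adjusted p = 0.00118). The summed level of the list, added up without logs, was 50.3 to 60.2 on the naive, 40.2 to 43.4 on the Th1 and 35.9 to 40.3 on the Th17 arrays. Pcna made up most of this sum, with a mean log2 level of 5.59 in naive cells, where the next gene, Mcm5, stood at 1.81. The median change of the 13 tested genes was -0.02 in Th1 and 0.22 in Th17 cells. Its part in the changes of the lipid genes was not tested.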

How the data were processed

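The deposited scanner files hold 1-colour Cy3 intensity values from 9 Agilent mouse arrays (0.5 µg RNA each), which the authors extracted with Agilent Feature Extraction, per the file headers, and which include a background-subtracted processed signal per spot. The file headers give version 10.7.3.1, and the submitters' processing notes name 10.5. The deposited table of the authors' processed log2 values was used only as a check. Its differences between arrays matched the scanner values, its column medians ran from -0.096 to 0.284, and the baseline taken off each probe is not given in the sources used here.

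Control and outlier spots were dropped, spots of a probe averaged, and log2 processed signal taken relative to the 75th percentile of its array. Of 39429 probes, 170 lacked a value on some array and were dropped, and 27234 were named through their RefSeq accession. The 23215 probes well above background on at least 3 of 9 arrays were kept, and the brightest per gene gave 19071 genes. limma 3.58.1 in R 4.3.3 fitted all 3 populations together, without slide or replicate number as a term. The procedure was tested on simulated data. The number of arrays limits the precision. All 33 genes are described by role, with up to 4 genes of smallest p in each direction from the list of other lipid genes and up to 3 from the proliferation list. The genes and lists were chosen with earlier results of these data known. The alternatives were the background correction, the normalization, the filter, the probe rule, the samples fitted, slide, replicate number and each array left out.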

Additional observations from a re-analysis of the deposited data

Results flagged for a closer look

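Acly, the source of cytosolic acetyl-CoA, drew attention because the effector populations moved in opposite directions from the same 3 naive arrays, by -0.38 in Th1 and 0.72 in Th17 cells. The direct difference between Th17 and Th1 cells was 1.09 on the log2 scale (adjusted p = 0.000134 by limma), and all 3 Th17 arrays lay above all 3 naive arrays, which lay above all 3 Th1 arrays. The second probe of Acly gave a difference of 1.34 (adjusted p = 0.000386). With slide as a block the difference was 1.07 (adjusted p = 0.00164), while the fall in Th1 cells was then not called (adjusted p = 0.063).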

How the results depend on the processing

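The counts of genes called lower or higher moved little when single arrays were left out. They ran over 19 to 20 lower and 0 to 1 higher in Th1 cells, 16 to 17 lower and 4 to 5 higher in Th17 cells, and 2 to 3 lower and 5 to 6 higher between Th17 and Th1 cells. The gene called higher in Th1 cells was Acacb without naive replicate 1 and Fdft1 without Th1 replicate 2; Nsdhl in Th1 cells reached -0.42 (adjusted p = 0.05) without Th1 replicate 3. Single arrays also added the calls of Ebp (0.45, without Th17 replicate 2) and Pmvk (-0.29, without Th17 replicate 3) in Th17 cells, and of Hsd17b7 (0.44, without Th17 replicate 2) and Fads1 (0.69, without Th1 replicate 3) between Th17 and Th1 cells. Against 0 genes higher in Th1 cells, other settings gave 1 with capped normexp, 1 with quantile normalization, 1 within slide 1, 1 when only the 2 groups compared were fitted, 2 with slide as a block and 5 with the percentile over probes above background on all arrays. Slide as a block gave 2 genes higher in Th17 cells instead of 4, and turned Elovl6 in Th17 cells to 0.63. Within slide 2 the comparison of Th17 with Th1 cells gave 1 lower and 3 higher. The normexp background correction with its usual settings gave 6 lower in Th1 cells, 4 lower and 0 higher in Th17 cells, and 0 lower and 0 higher between them. It turned Acss2 to 0.60 in Th1 and 0.01 in Th17 cells, and Mvd in Th17 against Th1 cells to -0.13. Under it only 1258, 1219 and 179 genes of the whole array were called. Th1 replicate 2 alone had spots with a local background over 1000, 5 of them, and a lowest corrected signal of 95.35, where the other arrays had about 50. With that background capped, an alternative chosen after seeing the data, the counts were 18 lower and 1 higher, 14 and 3, and 2 and 6. The cause of the other changes was not tested. Leaving aside the uncapped normexp correction, 15 of 19 calls in Th1 cells, 14 of 21 in Th17 cells and 3 of 9 between them (Mvd, Msmo1 and Acly) held under every alternative in which the gene was tested.

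Replicate numbers are shared by the populations, and deviations from the group means correlated at -0.007 to 0.175 over 9 pairs with the same number and at -0.197 to 0.065 over 18 pairs with different numbers. Not every pair with the same number was over 0.1, so the numbers were not taken to pair the samples. The range was higher for pairs with the same number, and this rule cannot exclude a partial pairing. With the replicate number as a block the counts were 19 and 0, 17 and 4, and 3 and 6, but between Th17 and Th1 cells Pmvk lost its call (adjusted p = 0.0592) and Elovl6 gained one (-2.03, adjusted p = 0.0156). Dim genes such as Dhcr7, Acacb and Scd2 are limited by signal over background.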
